A study of Mus musculus with 16 samples.

Results

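The genes described here are 10 factors known for their part in pluripotency, the state in which a cell can still form every tissue of the embryo. They were picked by name as Pou5f1, Sox2, Nanog, Sall4, Esrrb, Zfp42, Prdm14, Lin28a, Lin28b and Tcl1, and all 10 were found among the 25965 genes of the deposited expression table. Values came from wild-type mouse oocytes sorted by diameter, of the strain C57BL/6 in the labels and C57BL/6Babr in the methods. RNA-seq libraries were made in duplicate (A and B) for oocytes of 10–30 μm (from pups at postnatal days 5 to 7), 40–45 μm (days 7 to 12), 50–55 μm (days 9 to 14) and 60–65 μm (days 13 to 16), and the table adds 1 column for fully grown germinal vesicle (GV) oocytes of day 20. DNA methylation was read by reduced representation bisulphite sequencing (RRBS), which samples CpG-rich sequence, in libraries A and B of each class but the smallest, and by post-bisulphite adaptor tagging (PBAT), which samples the whole genome, in 1 library of the 60–65 μm class. All groups are wild type and untreated, and each library pools oocytes that were picked by hand from several mice and washed with the aim of removing somatic cells, so that size, age and stage of growth cannot be told apart.

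Pou5f1 (OCT4), a POU-domain factor, and Sox2, an HMG-box factor, bind DNA side by side in embryonic stem cells and, with the homeodomain factor Nanog, form the core of the network that holds those cells in the pluripotent state. Sall4 (a zinc finger protein that recruits the NuRD complex), Esrrb (an orphan nuclear receptor), Zfp42 (REX1, a YY1-related zinc finger protein) and Prdm14 (a PR-domain zinc finger protein) act beside this core, Lin28a and Lin28b bind RNA and block the maturation of let-7 microRNAs, and Tcl1 is a co-activator of the AKT kinases. Some of these genes are also active in germ cells: SALL4 is needed for oocyte maturation, PRDM14 for the specification of primordial germ cells, and transcripts stored in the oocyte serve the embryo until its own genome is switched on.

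The members lie on GRCm38 as follows in the deposited table. Pou5f1 spans chr17:35506037-35510776 (plus strand), Sox2 chr3:34650005-34652461 (plus), Nanog chr6:122707489-122714633 (plus) and Sall4 chr2:168748332-168767943 (minus). Esrrb spans chr12:86361117-86521628 (plus), which at 160.512 kb makes it the longest of the 10, Zfp42 chr8:43295068-43307009 (minus) and Prdm14 chr1:13113457-13127163 (minus). Lin28a spans chr4:134003330-134018841 (minus), Lin28b chr10:45376620-45470201 (minus) and Tcl1 chr12:105216750-105222793 (minus).

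The promoters of 4 genes carry the contrasts in methylation described further on, and 150 bases just upstream of each annotated start are shown, 5′ to 3′ on the strand of the gene, with every CpG in capitals (RefSeq, GRCm38.p6). They are, in this order, a CpG-rich one (Sox2, chr3:34649845-34649994), the promoter of the core factor with the highest RNA level (Pou5f1, chr17:35505882-35506031), that of the nuclear receptor whose RNA increased most among the 6 members tested by limma (Esrrb, chr12:86360967-86361116), and the one promoter of the 8 with sequence that was mostly methylated (Lin28b, chr10:45470202-45470351).
Sox2: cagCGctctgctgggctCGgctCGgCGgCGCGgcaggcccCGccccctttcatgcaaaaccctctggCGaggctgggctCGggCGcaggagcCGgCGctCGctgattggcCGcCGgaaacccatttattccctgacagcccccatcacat
Pou5f1: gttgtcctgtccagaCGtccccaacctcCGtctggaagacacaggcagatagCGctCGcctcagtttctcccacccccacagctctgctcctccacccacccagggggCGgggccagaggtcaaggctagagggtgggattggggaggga
Esrrb: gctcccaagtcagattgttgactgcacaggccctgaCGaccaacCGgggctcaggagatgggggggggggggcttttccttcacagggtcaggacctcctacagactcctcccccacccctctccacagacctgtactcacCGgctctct
Lin28b: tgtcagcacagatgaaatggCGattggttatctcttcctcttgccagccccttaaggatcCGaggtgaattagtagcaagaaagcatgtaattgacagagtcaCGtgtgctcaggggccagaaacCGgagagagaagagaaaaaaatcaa

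In the window from 250 bases before to 50 bases after the start, Sox2 had 27 CpGs, Pou5f1, Zfp42 and Tcl1 had 11 each, Lin28a 10, Lin28b 8, Esrrb 7 and Nanog 4, against a median of 7 over all 32851 promoter windows. In all, 6 motifs were searched on both strands of these windows. The octamer ATGCAAAT, the classic target of POU factors, stood only in the Zfp42 window among the members and in 1.74% of all promoters. The SOX letters CATTGTT were found in the window of an inner start of Pou5f1 and in 3.78% of all promoters, and the nuclear receptor letters AAGGTCA in none of the members' windows and in 4.72% of all. The GC box GGGCGG was present at Pou5f1, Sox2, Lin28a, Zfp42 and Tcl1 and in 35.7% of all promoters, TATAAA in no member's window and in 13.6%, and the E-box CANNTG, which stood in a window of all 8 matched members but Lin28a, in 72.3%.

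RNA levels are given as RPKM, the reads of a gene scaled to the length of its exons and to the total of the library, so that a level is a share of the RNA sequenced and not an amount per oocyte. In such pools, fewer cells expressing a gene and less RNA per cell cannot be told apart. The libraries held from about 99400000 to about 198300000 counting units (reads recovered from the RPKM), and log2 values of replicates correlated at 0.986 to 0.995 across genes, which are not independent replicates. Markers of oocytes summed to between 3013 and 4320 RPKM over 12 genes (Zp1, Zp2, Zp3, Gdf9 and others) in the 9 columns. Markers of granulosa cells (12 genes, none at 0 in any column) summed to 0.865 and 0.906 RPKM at 10–30 μm and to 2.70 and 3.13 RPKM at 60–65 μm, those of stroma and theca (10 genes, with Cyp17a1 at 0 at 10–30 μm and Tcf21 at 60–65 μm) to 2.92 and 4.07 against 1.10 and 1.16 RPKM, and those of blood and endothelium (8 genes, with Alas2 at 0 in 8 of 9 columns) to 0.853 and 0.920 against 4.77 and 5.11 RPKM, most of it Pecam1. These sums changed along the same size classes as the members described next, and their part in the members' changes was not tested.

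Among the 10 members were genes abundant at every size, genes that increased with growth and genes that were almost silent, with Lin28b, near 1 RPKM, between them. In 60–65 μm oocytes Tcl1 ranked 62 among all 25965 genes, Pou5f1 478, Sall4 498, Lin28a 913, Esrrb 2853 and Lin28b 8626, counted from the highest level. Sall4 had ranked 2609 and Esrrb 7858 at 10–30 μm. Nanog gave 0 reads in every column, and Sox2, Zfp42 and Prdm14 stayed below 0.5 RPKM throughout.

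**Figure D1:**
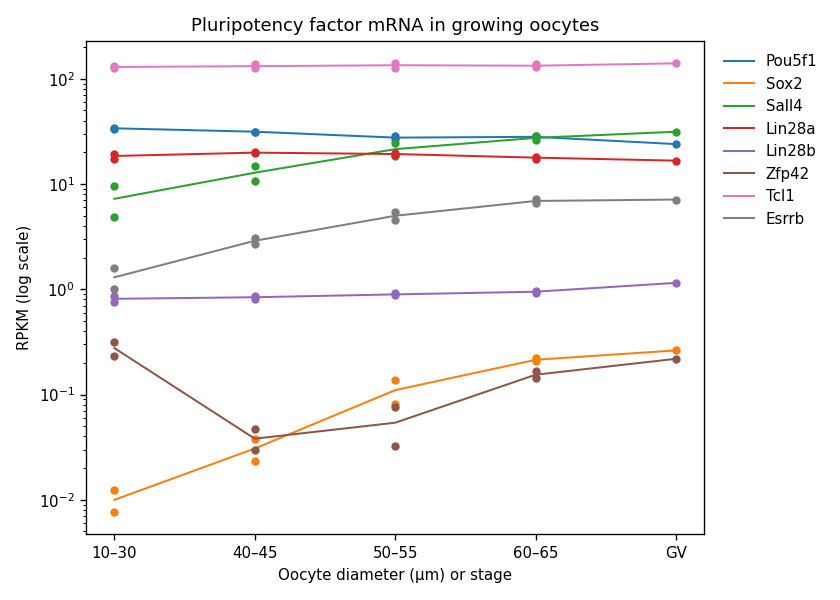
RPKM of the 8 members with reads in every column, by oocyte size class, on a log axis, with 1 point per library, 1 for GV oocytes and lines through the class means. Sall4 runs from 4.83 and 9.66 RPKM at 10–30 μm to 28.5 and 26.4 RPKM at 60–65 μm, Esrrb from 1.00 and 1.60 to 7.27 and 6.55 RPKM, whereas Tcl1 stays between 126 and 141 RPKM.

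Among the core factors, Pou5f1 was read at a high level throughout. It measured 34.2 and 33.5 RPKM (A and B) at 10–30 μm, 31.3 and 31.6 RPKM at 40–45 μm, 26.8 and 28.4 RPKM at 50–55 μm, 27.8 and 28.4 RPKM at 60–65 μm and 24.0 RPKM in GV oocytes. Both libraries of each of the first 2 classes lay above all 4 libraries of the larger classes, and the GV column was the lowest of all. Pou5f1 fell by 0.27 ± 0.09 (SE) on the log2 scale from 10–30 to 60–65 μm, a fold of 0.831 (limma, n = 2 against 2, adjusted p = 0.0339), with a 95% interval of -0.48 to -0.05. This call ended without library A of 10–30 μm (adjusted p = 0.0989), without A or B of 50–55 μm (0.0640 and 0.0705) and without A or B of 60–65 μm (0.186 and 0.120).

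Sox2, the partner of OCT4, was rare. In RPKM it measured 0.0123 and 0.00768 at 10–30 μm, 0.0379 and 0.0234 at 40–45 μm, 0.138 and 0.0816 at 50–55 μm, 0.221 and 0.207 at 60–65 μm and 0.263 in GV oocytes. Each size class lay above the one before it with no overlap between neighbours. These values rest on 3 and 3 reads at 10–30 μm, 14 and 11 at 40–45 μm, 40 and 31 at 50–55 μm, 57 and 92 at 60–65 μm and 128 in GV oocytes, read counts recovered from the RPKM.

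At under 0.5 RPKM Sox2 was not among the genes tested by limma. On the recovered reads, a test added after the data had been seen, Sox2 rose from 10–30 to 60–65 μm by 4.45 on the log2 scale, 21.9-fold (edgeR, n = 2 against 2, adjusted p = 4.18e-05), and from 40–45 to 50–55 μm by 1.80 (adjusted p = 0.0245). Sox2 met the minimum of 10 reads in 2 libraries only through the classes above 10–30 μm. The direction of its change from 10–30 to 60–65 μm was therefore set by this filter. The summed counts of 6 and 149 reads, scaled to depth, gave a ratio of 22.4 with a 95% counting interval of 10.1 to 62.1. Sox2 lies wholly within Sox2ot, a long non-coding gene on the same strand, whose own level went from 0.00233 and 0.000729 RPKM at 10–30 μm to 0.0441 and 0.0455 RPKM at 60–65 μm. The exons of the 2 genes were not compared. Whether reads over the shared span came from Sox2 or Sox2ot transcripts cannot be told from this table, and the share of each was not tested.

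Nanog, the homeodomain factor of the core, gave 0 reads in all 9 columns. A count of 0 allows up to 3 reads, which corresponds to 0.00675 to 0.0135 RPKM for Nanog in these libraries. Prdm14, the factor of primordial germ cells, gave 1 read in library B of 50–55 μm, 2 reads in GV oocytes and 0 elsewhere, where 3 reads correspond to 0.00590 to 0.0118 RPKM. Neither gene was detectable beyond these floors at any size.

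Sall4 and Esrrb, a chromatin-recruiting zinc finger protein and a nuclear receptor, both increased. Sall4 measured 4.83 and 9.66 RPKM at 10–30 μm, 10.7 and 14.9 RPKM at 40–45 μm, 18.6 and 24.3 RPKM at 50–55 μm, 28.5 and 26.4 RPKM at 60–65 μm and 31.4 RPKM in GV oocytes. No 2 size classes overlapped, and library B was above A in the 3 smaller classes but below it at 60–65 μm. From 10–30 to 60–65 μm Sall4 rose by 1.99 ± 0.27 (SE) on the log2 scale (95% interval 1.37 to 2.62), 3.98-fold (limma, n = 2 against 2, adjusted p = 0.000347).

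The single steps of Sall4 were less firm. From 10–30 to 40–45 μm the log2 change was 0.95 (limma, adjusted p = 0.0394), from 40–45 to 50–55 μm 0.71 (adjusted p = 0.134) and from 50–55 to 60–65 μm 0.34 (adjusted p = 0.639). The first step was no longer called without library A of 10–30 μm, where its log2 change was 0.49 (adjusted p = 0.166), nor without 40–45 μm A (0.0712) or B (0.170) or 60–65 μm A (0.0672) or B (0.0674). It was also lost without further scaling (0.0682) and without the filter on low values (0.215).

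Esrrb measured 1.00 and 1.60 RPKM at 10–30 μm, 2.72 and 3.06 RPKM at 40–45 μm, 4.60 and 5.39 RPKM at 50–55 μm, 7.27 and 6.55 RPKM at 60–65 μm and 7.13 RPKM in GV oocytes. Its size classes did not overlap either, and the GV value fell between the 60–65 μm libraries. Esrrb rose by 2.36 ± 0.17 (SE) on the log2 scale (95% interval 1.96 to 2.75), 5.12-fold, from 10–30 to 60–65 μm (limma, n = 2 against 2, adjusted p = 1.58e-05). It rose by 1.19 up to 40–45 μm (adjusted p = 0.00302) and by 0.73 from there to 50–55 μm (adjusted p = 0.0388), and its last step of 0.43 did not pass (adjusted p = 0.320). The step from 40–45 to 50–55 μm was not called without any one library of the 40–45, 50–55 or 60–65 μm classes (adjusted p from 0.0711 to 0.164), nor without the filter on low values (0.192).

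Zfp42, a marker of the pluripotent state named REX1, had another course. It measured 0.319 and 0.234 RPKM at 10–30 μm, 0.0296 and 0.0465 RPKM at 40–45 μm, 0.0756 and 0.0323 RPKM at 50–55 μm, 0.143 and 0.166 RPKM at 60–65 μm and 0.219 RPKM in GV oocytes. The smallest oocytes were highest, the 40–45 and 50–55 μm libraries overlapped at the lowest level, and the 60–65 μm libraries and the GV column lay in between. On recovered reads (57 and 67 at 10–30 μm against 8 and 16 at 40–45 μm), Zfp42 fell by 2.70 on the log2 scale (edgeR, n = 2 against 2, adjusted p = 0.00206), a counting ratio of 0.147 (95% interval 0.0905 to 0.228). From 10–30 to 60–65 μm its log2 change was -0.80 (adjusted p = 0.0626), and the ratio of its reads at 60–65 over 40–45 μm was 4.03 (counting interval 2.53 to 6.64), with neither later step past the test (adjusted p = 0.665 and 0.164).

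The RNA-binding pair differed in level and little in time. Lin28a measured 17.5 and 19.5 RPKM at 10–30 μm, 19.6 and 20.2 RPKM at 40–45 μm, 18.9 and 19.7 RPKM at 50–55 μm, 17.4 and 18.2 RPKM at 60–65 μm and 16.7 RPKM in GV oocytes. The 60–65 μm libraries overlapped those of 10–30 μm, and the log2 change of Lin28a between them was -0.05 (limma, n = 2 against 2, 95% interval -0.25 to 0.15, adjusted p = 0.647). Gm13061, on the opposite strand over the start of Lin28a, measured 0.455 to 1.18 RPKM, the highest level of the opposite-strand genes that overlap a member. The others were Gm19553 over Pou5f1 (at most 0.0954 RPKM), Gm14261 over Sall4 (at most 0.0407 RPKM) and Gm20697 over Tcl1 (at most 0.461 RPKM).

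Lin28b, which is also a block on let-7, measured 0.866 and 0.757 RPKM at 10–30 μm, 0.869 and 0.812 RPKM at 40–45 μm, 0.913 and 0.875 RPKM at 50–55 μm, 0.974 and 0.922 RPKM at 60–65 μm and 1.15 RPKM in GV oocytes. The 60–65 μm libraries lay above the 10–30 μm libraries without overlap, and the log2 change of 0.20 did not pass the test (limma, n = 2 against 2, 95% interval -0.08 to 0.49, adjusted p = 0.180).

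Tcl1, the AKT co-activator, was the most abundant member, with 128 and 131 RPKM at 10–30 μm, 126 and 138 RPKM at 40–45 μm, 141 and 128 RPKM at 50–55 μm, 138 and 129 RPKM at 60–65 μm and 140 RPKM in GV oocytes. All classes overlapped, and the log2 change of 0.04 had a 95% interval of -0.19 to 0.27 (limma, n = 2 against 2, adjusted p = 0.740).

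Of the 10 members, 6 passed the filter of 0.5 RPKM in 2 libraries and were tested by limma. From 10–30 to 40–45 μm 2 of the 6 were called higher (Sall4 and Esrrb) and 0 lower, where 13.2% of all 10518 genes tested were called higher and 9.76% lower. In the step from 40–45 to 50–55 μm 1 was higher (Esrrb) and 0 lower, against 5.27% and 3.45% of all genes. In the last step, up to 60–65 μm, 0 members were called, and limma called 0 of all genes (0% in each direction), with 1440 at an unadjusted p under 0.05, as edgeR on recovered reads also called 0. Over the whole course from 10–30 to 60–65 μm, 2 members were higher (Sall4 and Esrrb), 1 lower (Pou5f1) and 3 not called, against 31.5% higher and 31.8% lower of all genes. By edgeR on recovered reads 3 of 8 members were higher and 1 lower, against 30.4% and 30.6% of 15021 genes. Sox2, among the 3 higher, passed the filter on reads only through the classes above 10–30 μm. With so large a share of all genes moving, the members' counts are near the background, and the median log2 change of the 6 tested was 0.12 against 0.00 over all genes.

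**Figure D2:**
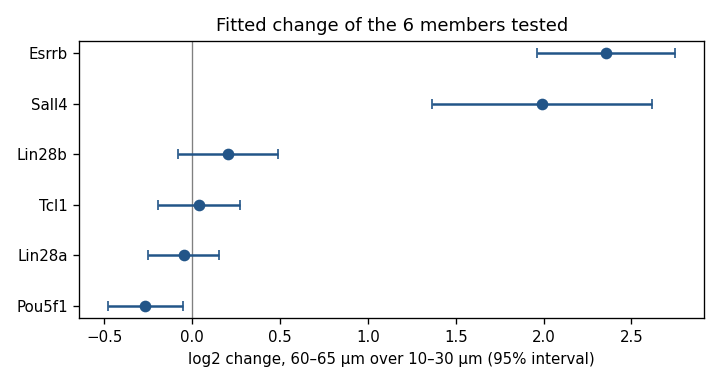
Fitted log2 change from 10–30 to 60–65 μm for the 6 members tested by limma, with 95% intervals (n = 2 against 2). The intervals of Esrrb (1.96 to 2.75) and Sall4 (1.37 to 2.62) lie far to the right of 0, that of Pou5f1 (-0.48 to -0.05) just left of it, and those of Lin28a, Lin28b and Tcl1 include 0.

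Against the mean at 60–65 μm, the single GV column was higher for Sox2 (1.23-fold), Lin28b (1.21-fold), Zfp42 (1.42-fold), Sall4 (1.14-fold) and Tcl1 (1.05-fold), with values above both 60–65 μm libraries. It was below both for Pou5f1 (0.853-fold) and Lin28a (0.936-fold). The GV column has no replicate, so these folds carry no error and no test.

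The wider pluripotency network was read from 32 further genes, of which 15 passed the filter. Of these, over the whole course, 4 rose, 5 fell and 6 were not called, where 31.5% of all genes tested were higher and 31.8% lower, with a median log2 change of 0.02. By edgeR on recovered reads 7 of 20 rose and 6 fell, against 30.4% higher and 30.6% lower of all genes. Dppa2, a DNA-binding partner of Dppa4, rose by 2.06 (limma, adjusted p = 8.20e-06), and the nuclear receptor Nr5a2, which can stand in for Oct4 in reprogramming, by 1.59 (adjusted p = 1.62e-05). Klf4 rose by 0.83 (adjusted p = 0.019997) and the cytokine receptor subunit Il6st by 0.43 (adjusted p = 0.0193). Their RPKM means at 10–30 and 60–65 μm were 3.50 and 14.7 for Dppa2, 1.51 and 4.70 for Nr5a2 and 0.399 and 0.733 for Klf4. Klf4 passed the filter only with the larger classes, where it was high. Of its 10–30 and 40–45 μm libraries only 10–30 μm B (0.563 RPKM) reached 0.5 RPKM.

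Among those that fell were Stat3, the effector of LIF signalling, by 1.37 (limma, adjusted p = 7.76e-05), the maternal factor Dppa3 (Stella) by 1.201 (adjusted p = 0.000305), and the zinc finger gene Zfp281 by 0.96 (adjusted p = 0.000288). Fbxo15, long used as a reporter of pluripotency, fell by 0.65 (adjusted p = 0.0317), having passed the filter only through the 10–30 μm libraries. Dppa3 was by far the most abundant of these, with 590 and 475 RPKM at 10–30 μm and 213 and 248 RPKM at 60–65 μm. Fgf4, Gdf3, Tdgf1, Otx2 and Lefty1, all active in the embryo, were listed at 0 at both 10–30 and 60–65 μm.

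In the LIN28 and let-7 pathway, 19 of 22 listed genes were in the table and 13 were tested. Of these 4 rose, 2 fell and 7 were not called (31.5% and 31.8% of all genes), with a median of 0.15, and without further scaling 2 rose. By edgeR on recovered reads 8 of 19 rose and 3 fell, against 30.4% higher and 30.6% lower of all genes. The rises were in Dgcr8 (0.67, limma, adjusted p = 0.000363) and Dicer1 (0.38, adjusted p = 0.0290), which process microRNA precursors, in Xpo5 (0.42, adjusted p = 0.00320), which exports them from the nucleus, and in the mRNA-binding Igf2bp2 (0.55, adjusted p = 0.0487). Trim71 (LIN41), a let-7 target, fell by 1.13 (adjusted p = 4.06e-05), and Dis3l2, the nuclease that degrades the precursors marked through Lin28, by 0.75 (adjusted p = 0.000194).

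All 11 genes of the TCL1 family and the AKT branch listed beside Tcl1 were tested, and 7 rose and 4 fell, against 31.5% and 31.8% of all genes (median 0.54). Of the 7 rises 5 were in tandem Tcl1b copies. The tandem relatives Tcl1b5 (1.83, limma, adjusted p = 3.70e-05), Tcl1b1 (1.15, adjusted p = 1.94e-05), Tcl1b3 (1.05, adjusted p = 4.47e-05) and Tcl1b2 (0.68, adjusted p = 0.00222) had the largest rises, though these copies are much alike and reads may be split between them, and Tcl1b5 passed the filter only through the larger classes. The falls included the kinase gene Akt2, by 0.74 (adjusted p = 0.000263), and the TCL1 relative Mtcp1, by 0.57 (adjusted p = 0.00321). Akt1 rose by 0.54 (adjusted p = 0.00246), so Akt1 and Akt2, both kinases that Tcl1 binds, moved in opposite directions.

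Among 38 paralogues of the members 14 were tested, of which 9 rose, 1 fell and 4 were not called (median 0.59), against 31.5% higher and 31.8% lower of all genes. By edgeR on recovered reads 15 of 28 rose and 6 fell, against 30.4% higher and 30.6% lower of all genes. Sall2, a relative of Sall4, rose by 1.72 (limma, adjusted p = 2.12e-05), from 0.822 to 2.91 RPKM, while Sall1 was at or near 0 and Sall3 at 0.132 and 0.0446 RPKM. Prdm6 rose by 1.53 (adjusted p = 2.11e-05), Sox15, which can bind with OCT4, by 0.78 (adjusted p = 0.00575) and the YY1 relative Yy2 by 0.72 (adjusted p = 0.00424). Prdm9, which sets meiotic recombination sites, was the one that fell, by 1.79 (adjusted p = 1.92e-05), and passed the filter only through the 2 smaller classes. The other oestrogen-related receptors stayed under the filter, with 0.448 and 0.0950 RPKM for Esrra and 0.259 and 0.316 RPKM for Esrrg at 10–30 and 60–65 μm, so Esrrb had the highest level of the 3 at 60–65 μm.

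The NuRD complex, which SALL4 recruits, and partner chromatin proteins were tested for all 16 genes, and 8 rose, 3 fell and 5 were not called, where 31.5% of all genes rose and 31.8% fell (median 0.29). Gatad2b rose by 0.85 (limma, adjusted p = 0.0294), Cbfa2t2, a partner of PRDM14, by 0.59 (adjusted p = 0.0123), Wdr5 by 0.57 (adjusted p = 0.000905) and the remodelling ATPase Chd4 by 0.47 (adjusted p = 0.0483). Hdac1 fell by 1.24 (adjusted p = 0.000237), Rbbp4 by 0.67 (adjusted p = 0.00122) and Mbd2 by 0.58 (adjusted p = 0.00248).

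Likeness was measured in the same way for each member, as Pearson's r of log2 RPKM values over the 9 columns against 8532 genes. The gene most like Sall4 was Gpr3 (r = 0.998), followed by Fmnl3 and Zswim4. Esrrb was most like Gli3 (r = 0.999), Grn and Lrrc8e, and Pou5f1 most like Enho (r = 0.993), Rab1b and Cars2. Lin28a was most like Anks4b (r = 0.976), Gm221 and Gm12992. Tcl1, which varied least, had no gene as close, with Zfyve20 (r = 0.896), 1110003E01Rik and Alg9 at the top. The columns share size classes, so that these r describe likeness of course only.

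Methylation was read next, as the percent of reads at a CpG that kept a cytosine after bisulphite treatment. The start of a gene is the stretch within 1 kb of its first base and the body is the rest of its span, and a value is the mean over at least 5 positions that had at least 5 reads each. RRBS libraries held from 30000113 to 57319823 calls, where a call is 1 read at 1 CpG cytosine, and the PBAT library held 99039028. PBAT has no replicate, and intervals given for it are Wilson 95% intervals of pooled calls that cover counting error only.

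At their starts, 8 of the 9 members measured by PBAT at 60–65 μm had little methylation. The means were 1.35% at Nanog, 2.62% at Sox2, 3.39% at Esrrb, 3.69% at Lin28a, 4.34% at Sall4, 5.78% at Tcl1, 5.79% at Prdm14 and 10.1% at Pou5f1. Over all 19669 gene starts the median was 3.87%, and 6.00% of starts reached 25%. Prdm14, almost silent, and Tcl1, abundant, thus had like values above that median, with Nanog below it and Pou5f1 further above it.

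Lin28b was the exception, at 70% over 5 positions (19 of 27 calls, Wilson interval 51.5 to 84.1%). In the promoter window printed above with its neighbouring bases, 23 of 41 calls were methylated, 56.1% (41.0 to 70.1%), as against 1 of 124 calls at Sox2, 1 of 81 at Pou5f1 and 2 of 68 at Esrrb. A pair of non-coding Lin28b transcripts annotated by GENCODE begin further upstream, and within 1 kb of the one that starts 15.6 kb before the tabulated start 2.39% of 2718 calls were methylated. The 8 CpGs of the Lin28b window are close to the median of all promoters, and the 27 of Sox2 exceed those of 84.5% of promoters.

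RRBS reached the starts of Sox2, Lin28a and Prdm14 in all 6 libraries, and those of Sall4 and Zfp42 in all but library B of 50–55 μm. Sox2 stayed between 0.0 and 1.0% and Lin28a between 0.0 and 1.8% in every library, and Sall4 was at 0% in its 5 libraries, with 72 to 228 calls each. Zfp42 lay between 0.1 and 5.1%, and Prdm14 between 0.0 and 1.8% except in 50–55 μm B at 10.8% (9 positions). None of these starts reached the mean of 5% over the 6 libraries needed to be tested for a change from 40–45 to 60–65 μm. By edgeR 68.8% of the 247 starts that did were called higher and 0% lower, and without this minimum 0.716% of 12008 starts were called higher and 0% lower, with 0 of the 3 members measured among them (adjusted p = 1 for each).

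Bodies differed far more than starts. By PBAT at 60–65 μm and 5 reads per position, Pou5f1 (46.8%) and Sall4 (44.9%) had the highest body methylation of the members, followed by Lin28b (31.0%), Tcl1 (26.2%) and Lin28a (20.5%). Esrrb (8.40%), Zfp42 (7.85%), Prdm14 (7.84%), Sox2 (3.59%) and Nanog (1.19%) were below 10%. Over all 20121 bodies the median was 23.5%, and 48.7% of them reached 25%, as 4 of the 10 members did. The values for Pou5f1, Lin28b, Zfp42 and Nanog, which had 14 to 49 positions, depended on the coverage asked for, and with 1 read per position they were 29.2, 43.9, 17.2 and 9.04%. The place of these 4 bodies among genes of like RNA level is therefore not read from the values plotted.

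**Figure D3:**
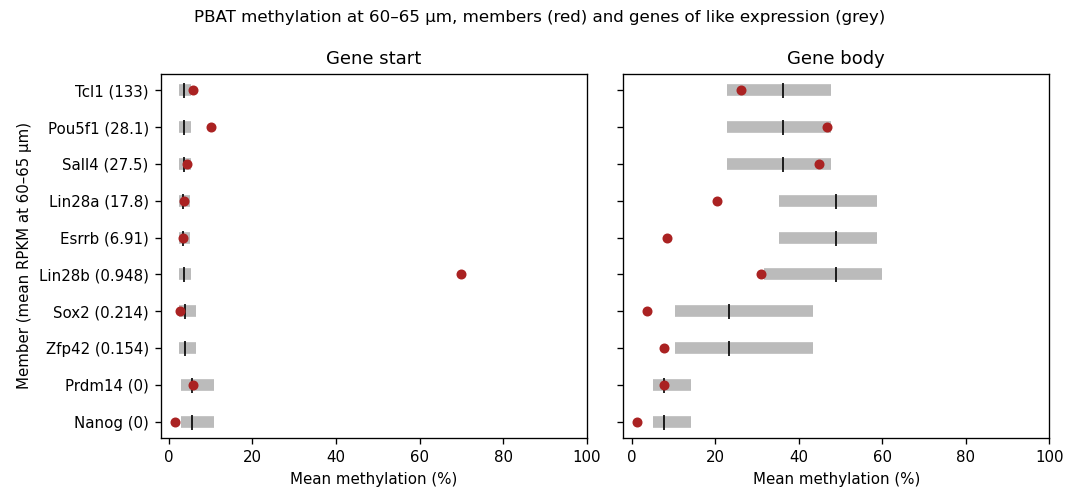
PBAT methylation (%) of start (left) and body (right) of each member at 60–65 μm (points), with the quartiles (grey bars) and median (line) of genes in the same band of RPKM. The starts measured lie at 10.1% or below but for Lin28b at 70%, Zfp42 has no start value, and the bodies, at 5 reads per position, run from 1.19% at Nanog to 46.8% at Pou5f1.

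Set against genes of like RNA level, Prdm14 (7.84%) was close to the median of 7.78% of 3660 genes at 0 RPKM, and Sox2 was below the lower quartile (10.4%) of the 2215 genes between 0.1 and 0.5 RPKM. Sall4, above 20 RPKM, stood above the median of 36.2% of such genes (quartiles 22.9 and 47.8%, 695 genes), and Tcl1 was below that median. Lin28a, between 5 and 20 RPKM, was below the lower quartile of its band (35.2%), and Esrrb further below it.

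Esrrb thus combined an RNA level of 6.91 RPKM at 60–65 μm with a body that stayed mostly unmethylated. Over its whole span 9.24% of PBAT calls were methylated. Among 315 genes of 5 to 20 RPKM that span at least 100 kb and had at least 100 calls, a comparison chosen after the value had been seen, the median was 44.4% (quartiles 37.1 and 50.6%), only Meis2 (7.78%) was lower than Esrrb, and Rnf220 (11.6%) was next above it. Along 10 equal bins of the Esrrb span, the percent lay between 4.5 and 11.1% in bins 1 to 9 and was 22.5% (20.5 to 24.6%, 1576 calls) in bin 10. GENCODE places further Esrrb starts 60.5, 60.8, 109 and 143 kb into the span, the last of them a non-coding transcript, and which of them the oocyte uses was not read from the table. RRBS gave mean body values for Esrrb of 0.7 and 2.3% at 40–45 μm, 3.6 and 5.5% at 50–55 μm, followed by 2.1 and 1.8% at 60–65 μm, with the last class overlapping the first. Pooled over all calls of the body at these positions, Esrrb instead had 1.07 and 1.03%, 2.05 and 4.27%, then 2.73 and 3.93% in the same order. The intervals at 40–45 μm reached up to 1.39% and those at 60–65 μm began at 2.28%, so whether these classes overlap depends on the measure. On the 3′ side of the midpoint of the span, with every covered position kept, 1.24 and 1.85% of calls were methylated in the 40–45 μm class, followed by 4.72 and 8.66%, then 5.78 and 7.50% in the largest class, while the 5′ side stayed between 0.401 and 2.09% in all 6 libraries.

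Sall4 had a sharp edge between an unmethylated 5′ stretch and a methylated remainder. In 10 equal bins of 1.96 kb each, PBAT gave 2.8% in bin 1 (784 calls) and 5.0% in bin 2 (424 calls), then 44.8% in bin 3 (36.8 to 52.9%), 51.8% in bin 4, 55.8% in bin 5, 57.0% in bin 6, 60.2% in bin 7, 68.7% in bin 8, 67.1% in bin 9 and 49.7% in bin 10. The intervals of bins 1 and 2 lay far below those of all 8 later bins. Bin 8, near the 3′ end, was the highest.

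**Figure D4:**
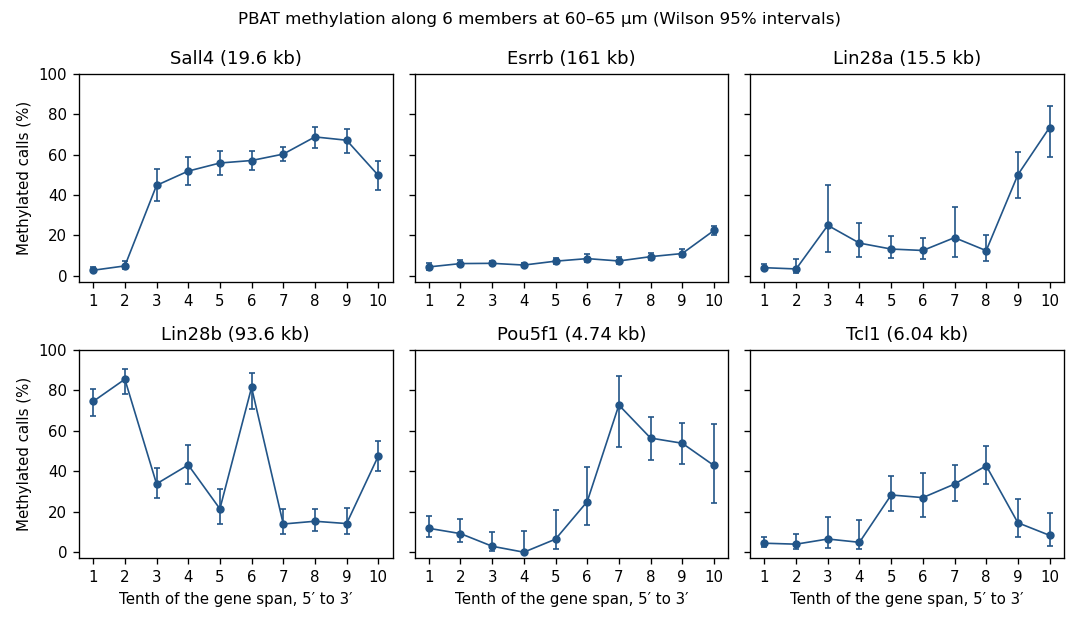
Methylated PBAT calls (%) in 10 equal bins from the 5′ to the 3′ end of 6 members at 60–65 μm, with Wilson 95% intervals. Sall4 steps from 5.0% in bin 2 to 44.8% in bin 3, Esrrb stays at or below 11.1% up to bin 9, and Lin28b starts at 74.5% and 85.5% in bins 1 and 2.

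RRBS followed the same gene over size classes when its span was cut at the midpoint, a cut made after the bins had been seen. On the 3′ side, the percent of methylated calls in Sall4 was 1.8 and 1.1% at 40–45 μm (A and B), 28.7 and 36.0% at 50–55 μm, followed by 54.4 and 55.6% at 60–65 μm, with 453 to 1937 calls each. The 3 classes did not overlap, with intervals of 26.2 to 31.3% and 31.7 to 40.5% at 50–55 μm and of 51.0 to 57.8% and 52.1 to 59.0% at 60–65 μm. On the 5′ side, the RRBS calls in Sall4 stayed between 0.3 and 1.0% methylated in all 6 libraries (2468 to 4865 calls). At 60–65 μm all but 6 of these calls in each library lay within 3 kb of the start, so they do not describe the rest of this side, where PBAT bins 3 to 5 were methylated and the side as a whole was at 19.5% (17.7 to 21.4%). No model was fitted to the values on either side of the midpoint, and with 2 libraries against 2 the smallest two-sided exact permutation p is 0.333.

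For comparison, the 3′ sides of 232 genes above 20 RPKM had medians of 2.22 and 1.30% at 40–45 μm, 12.7 and 11.6% at 50–55 μm, followed by 26.7 and 28.0% at 60–65 μm. Sall4 was thus above the upper quartile of these genes at 50–55 μm (19.3 and 19.7%) and at 60–65 μm (40.4 and 43.8%), but not at 40–45 μm (3.21 and 2.94%). The RNA of Sall4 was higher in each class of the same series, at means of 12.8, 21.5 and 27.5 RPKM, although RNA and methylation were read in different libraries.

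**Figure D5:**
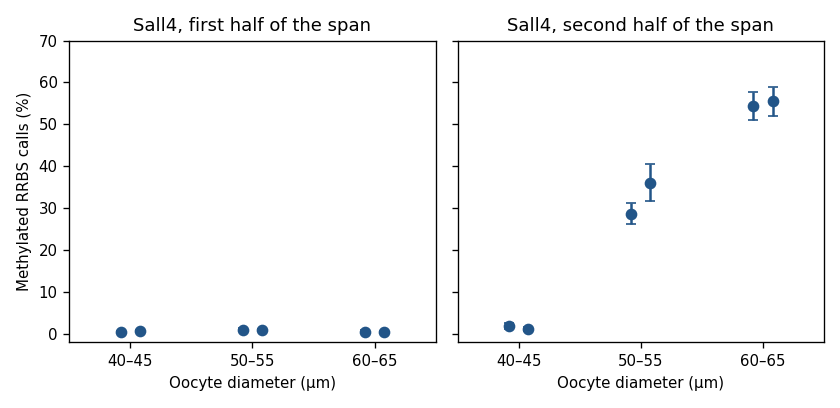
Methylated RRBS calls (%) in the 5′ part (left) and the 3′ part (right) of the Sall4 span, cut at its midpoint, by size class, with 1 point per library and Wilson 95% intervals. The 3′ part runs from 1.8 and 1.1% to 54.4 and 55.6%, and RRBS calls in the 5′ part, nearly all within 3 kb of the start at 60–65 μm, stay at or below 1.0%, although PBAT gave 19.5% for this part at 60–65 μm.

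Lin28a had a low 5′ stretch as Sall4 did, but no sharp edge after it, and was highest in bins 9 and 10. PBAT gave 4.1% in bin 1 and 3.4% in bin 2, between 12.5 and 25% in bins 3 to 8, and 50.0 and 73.3% in bins 9 and 10. RRBS calls on the 3′ side of its midpoint were methylated at 0.9 and 0.0% at 40–45 μm, 26.7 and 14.3% at 50–55 μm, followed by 39.7 and 34.3% at 60–65 μm. The values were in order by class, but with only 21 to 171 calls per library the counting intervals at 50–55 μm (17.1 to 39.0% and 5.0 to 34.6%) overlapped those at 60–65 μm (28.1 to 52.5% and 25.7 to 44.1%).

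Pou5f1 was low along its 5′ part, at or below 11.8% in bins 1 to 5, then 25% in bin 6, 72.7% in bin 7, 56.4% in bin 8, 53.8% in bin 9 and 42.9% in bin 10, with 21 to 144 calls a bin. RRBS body values of Pou5f1 were between 0.0 and 0.8% in 5 libraries and 23.2% in 50–55 μm B. Between 3 and 4 kb from the start, where 58.3% of 163 PBAT calls were methylated, 50–55 μm A had 5 calls, 50–55 μm B had 20, of which 20 were methylated, and the other 4 libraries had 0. The RRBS values of Pou5f1 thus mostly describe its 5′ part.

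Lin28b, methylated at its start, varied along its span: 74.5% and 85.5% in bins 1 and 2, 81.4% in bin 6, between 13.9 and 43.1% in bins 3 to 5 and 7 to 9, and 47.5% in bin 10. RRBS calls in the body, pooled because 50–55 μm B and 60–65 μm B had fewer than 5 positions, were methylated at 7.7 and 7.5% at 40–45 μm, 35.4 and 25.4% at 50–55 μm, followed by 70.4 and 61.2% at 60–65 μm. The classes did not overlap, with 49 to 143 calls per library. These calls come from only 2 to 6 positions of the body, and PBAT at 60–65 μm gave 30.4% of 342 calls there (25.8 to 35.5%), so the RRBS positions do not describe the body as a whole. As given above, its RNA had a log2 change of 0.20 over the whole course that did not pass the test.

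In the body of Tcl1, whose RNA was level, RRBS gave 14.2 and 10.6% at 40–45 μm, 15.2 and 35.9% at 50–55 μm, followed by 32.9 and 32.7% at 60–65 μm, from 8 or 9 positions. The 60–65 μm libraries lay above both 40–45 μm libraries. The place of 50–55 μm B depended on the measure, since its pooled calls were 25% methylated against 25.9 and 33.0% at 60–65 μm. In PBAT, Tcl1 was at or below 6.5% in bins 1 to 4, between 27.0 and 42.7% in bins 5 to 8 and at 14.5 and 8.3% in bins 9 and 10.

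Zfp42 gave RRBS body values of 2.5 and 3.2% at 40–45 μm, 3.3 and 13.95% at 50–55 μm, followed by 11.1 and 28.6% at 60–65 μm. Pooled calls of Zfp42 gave 3.0 and 2.4%, 4.2 and 24.2%, then 11.8 and 24.9%. By both measures the largest oocytes were above the 40–45 μm class, while libraries A and B differed widely at 50–55 and at 60–65 μm, and these 2 classes overlapped. The bodies of Sox2 and Prdm14 stayed at or below 2.2% in every RRBS library, and Nanog had no body position with enough reads.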

How the data were processed

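Per the labels and methods, the authors made strand-specific RNA-seq, RRBS and PBAT libraries, trimmed reads with Trim Galore (0.2.8 and 0.3.5 in the submitters' processing notes), and aligned them to GRCm38 with TopHat2 2.0.9 (RNA) or Bismark 0.10.0 and 0.14.0. The deposited expression values are RPKM per gene, not scaled further by the authors. The methods name Cufflinks for transcript levels and SeqMonk for RNA-seq analysis, and which of them made these values, and whether counting used strand, is not given in the sources used here. The deposited methylation files give, for each covered CpG cytosine, the percent of methylated calls and the counts of methylated and unmethylated calls, strands apart.

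Methylation percentages were recomputed from these counts, with at least 5 reads per position and 5 positions per region. All 10301 covered positions in the members' regions lay at a CpG. Expression was tested with limma 3.58.1 (R 4.3.3, trend in the variance) on log2(RPKM + 0.1) after trimmed-mean scaling (30% by ratio, 5% by level, factors 0.950 to 1.05), which understates changes of low genes. The 10518 genes of at least 0.5 RPKM in 2 of 8 libraries entered a single fit in which each size class had its own mean, and p-values were adjusted by Benjamini-Hochberg (threshold 0.05). The test had been set out for counts and was changed because the table holds RPKM. From RPKM, whole reads were recovered for all 10518 genes at a fitted length, within 0.003 reads plus an allowance that grew with the read count. Over 99.5% of single-exon genes gave whole reads within 0.02 reads at their known length, and a fragment may count more than once. These recovered reads were tested with edgeR 4.0.16 (at least 10 reads in 2 libraries, quasi-likelihood), as were gene starts in RRBS. Both were checked on simulated data. GV oocytes have 1 column and were only described. A count of 0 allows up to 3 reads. Nothing says that A and B came from separate cohorts of mice, so p-values measure the spread between these libraries, which may be technical.

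The members and gene lists were chosen with earlier results of these data known. Named genes are all 10 members, up to 4 called genes per list and direction with the largest change from 10–30 to 60–65 μm, the 3 genes most like each member of at least 1 RPKM, and genes that overlap a member, of which some are not reported here. Others, such as Akt1, Esrra, Meis2 and the genes at 0, were chosen after their values were seen. Promoters came from RefSeq (GRCm38.p6), where 8 of 10 members matched. Python 3.11.15 with numpy 2.4.6, pandas 2.3.3 and matplotlib 3.10.9 was used.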

Additional observations from a re-analysis of the deposited data

How the results depend on the processing

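Without any one library, a size class of 1 library was assumed to vary like the others. From 10–30 to 40–45 μm 2 members were called higher, with 1 without further scaling, 1 without the filter and 1 to 2 when 1 library was left out, and 0 were called lower, with 1 without the filter and 1 by edgeR on recovered reads, which was added after seeing the data (Zfp42 in both). From 40–45 to 50–55 μm 1 was higher, with 0 without the filter, 2 with the replicate block (Sall4, adjusted p = 0.0378, beside Esrrb), 2 by edgeR (Sox2 beside Esrrb) and 0 to 2 when 1 library was left out. From 10–30 to 60–65 μm 1 was lower, with 0 to 1 when 1 library was left out. Of the RRBS gene starts 170 were called higher, with 86 without a minimum mean, 158 with the replicate block and 89 to 186 when 1 library was left out, and 0 lower, with 0 to 1. The members with a PBAT start of at least 25% numbered 1, and 0 within 500 bp, where Lin28b had too few positions to be counted. In all, 128 of 157 alternatives of such counts kept within 1.5 times the value reported, and 496 of 543 of single values kept their direction and side of the threshold or moved by less than their error.

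The libraries were not treated as paired by the letters A and B, since no label ties them and not every pair of classes had a correlation over 0.1. Deviations of A from B correlated at 0.594 to 0.671 among the 3 smaller size classes and at -0.222, -0.0228 and 0.114 between these and 60–65 μm, so the letters went together in the smaller classes only, as a hint from the data. With the letter as a block, limma called 3330, 1877, 240 and 7280 genes in the 4 comparisons, against 2415, 917, 0 and 6662 without it, and edgeR called 3294, 1230, 0 and 9164.

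Depth limits Nanog, Prdm14, Sox2 and Zfp42, which rest on 0 to 128 reads, and single bins of Pou5f1 and Lin28b, which rest on 21 to 181 calls. The PBAT and GV columns have no replicate.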

Other observations

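Beside the members, 14 factors of germ cell development were read, and 11 were tested from 10–30 to 60–65 μm. Of these 1 rose, 4 fell and 6 were not called, against 31.5% higher and 31.8% lower of all genes, with a median log2 change of -0.15. Sohlh1 and Sohlh2, a pair of helix-loop-helix factors that act early in follicle formation, fell by 4.95 (limma, adjusted p = 5.84e-06) and 2.55 (adjusted p = 1.77e-05), and Figla, which drives zona pellucida genes, by 1.997 (adjusted p = 7.98e-06). Sohlh1 measured 49.6 and 45.0 RPKM at 10–30 μm, 8.99 and 13.4 RPKM at 40–45 μm, 2.98 and 3.51 RPKM at 50–55 μm, 1.17 and 1.74 RPKM at 60–65 μm and 0.274 RPKM in GV oocytes, with no overlap between classes. Ddx4, the germ cell helicase VASA, fell by 0.67 (adjusted p = 0.000576), and Tfap2c, a partner of PRDM14 in primordial germ cells, rose by 1.45 (adjusted p = 4.69e-05). Nanos3 was listed at 0 at 10–30 and 60–65 μm.

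Among markers used to check for other cells, Cyp19a1 and Inha, known from granulosa cells, were the 2 of 12 that passed the filter, and did so only through the larger classes, so their direction (0.160 to 1.15 and 0.168 to 0.535 RPKM from 10–30 to 60–65 μm) was set by the filter. By edgeR on recovered reads 5 of 10 were higher and 0 lower, where 30.4% of all genes were higher and 30.6% lower. Pecam1, an endothelial marker, went from 0.567 and 0.531 RPKM at 10–30 μm to 4.70 and 4.19 RPKM at 60–65 μm and 5.68 RPKM in GV oocytes, whereas Cdh5, a marker of the same cells, stayed at or below 0.0103 RPKM in all 9 columns. Of the stroma and theca markers, Col1a1, Col1a2 and Col3a1 passed the filter through the smaller classes, where they are high, so that their direction was likewise set by it. By edgeR 4 of 7 were lower and 1, Star, higher.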
